A study of Cavia porcellus with 12 samples.

Results

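The genes described here code for proteins of the microfibril and elastic fibre of the extracellular matrix. There are 10 of them among the 11896 human orthologue symbols of the deposited expression table, and they were chosen by name: the fibrillin *FBN1*, the microfibril-associated *MFAP2* and *MFAP4*, the fibulins *FBLN1*, *FBLN2*, *FBLN5*, *EFEMP1* (fibulin-3) and *EFEMP2* (fibulin-4), and the emilins *EMILIN1* and *EMILIN2*. Their mRNA was measured in the livers of 6 guinea pigs with NASH (nonalcoholic steatohepatitis, fatty liver with inflammation and cell injury) and 6 controls. All were female Hartley guinea pigs (Dunkin Hartley in the labels), 10 weeks old on arrival and, after 1 week of acclimatisation, randomised in blocks by body weight. Controls ate chow and guinea pigs with NASH a high-fat diet with added sucrose and cholesterol, in both cases for 25 weeks. The guinea pigs with NASH had been picked for bridging fibrosis (grade 3) and the controls had been drawn at random among animals with neither NASH nor fibrosis, so the groups differ in diet and in disease state at once. Each animal gave 1 library from the left lateral lobe, and the livers were not perfused. Animals are named by their label numbers, which are 5, 10, 31, 32, 45 and 56 for controls and 2, 9, 11, 20, 41 and 65 for NASH.

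Fibrillin molecules assemble outside the cell into beaded microfibrils, which form the sheath on which elastin is laid down. Microfibrils also hold latent TGF-β through some of the latent TGF-β binding proteins (LTBPs). Fibulins, MFAPs and emilins sit on or between these fibres, where they help to join elastin, lysyl oxidases and cell-surface integrins to the scaffold. In the liver such fibres are found around portal tracts and vessels and in fibrous septa, and portal fibroblasts and hepatic stellate cells are known producers of them.

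Values are CPM, a gene's reads as a share of the library size that edgeR's TMM factors give for the animal. They are not corrected for gene length, so levels were not compared between genes. Total counts were 16980274 to 33091460 per animal, and a count of 3, the limit that no observed read allows, was at most 0.214 CPM in a control and 0.105 CPM in a guinea pig with NASH. Only counting error is covered by these limits. All 10 genes lay above 3 counts in every animal, and each stood on a count row of its own. The TMM factors were 0.804 to 0.875 in controls and 1.116 to 1.241 in NASH, and without them the median log2 fold change of all symbols moved from 0.00 to 0.48. Changes are therefore given relative to the bulk of the genes, and where library size alone changes a call or a count of calls, its value is given beside it. Groups were compared with edgeR's quasi-likelihood test, and genes were called DEGs when the p-value, adjusted over all 11896 symbols by the Benjamini-Hochberg method, was under 0.05.

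Of the 10 genes, 7 were higher in guinea pigs with NASH, 1 was lower and 2 did not pass the threshold. Over all symbols tested, 53.9% were DEGs, 27.9% as higher and 26% as lower. Under library size alone 9 of the 10 genes were higher and 0 lower by edgeR, beside 7603 symbols higher and 911 lower of 11896. *MFAP2*, *MFAP4*, *FBLN2*, *FBLN5*, *EFEMP1*, *EFEMP2* and *EMILIN2* rose, each with a log2 fold change of at least 1, which 12.8% of all symbols reached as DEGs. In the deposited rlog values, which shrink low counts, the 7 differences were smaller, from 0.31 (*FBLN2*) to 0.99 (*MFAP4*), and passed the threshold with limma. *FBLN1* fell relative to the bulk of the genes, although with library size alone its log2 fold change was 0.018. *FBN1* and *EMILIN1* did not pass the threshold with TMM factors and passed as higher with library size alone. The median log2 fold change of the 10 genes was 1.41, against 0.00 for all symbols. In 6 of the 10 genes the groups did not overlap, 5 with every guinea pig with NASH above every control and 1 with every one below. The groups did not overlap in 33.7% of all symbols, with NASH above in 18.4% and below in 15.3%. Summed, the 10 genes held 255.9 to 342.5 CPM in controls and 315.5 to 390.7 CPM in NASH, ranges that overlapped, and as a share of all reads without TMM factors 0.0217% to 0.0300% and 0.0352% to 0.0466%, which did not. *FBLN1*, *FBN1* and *EMILIN1* (control means 136.1, 64.4 and 47.7 CPM) weigh most in these sums, and none of them was called higher with TMM factors. In bulk tissue, fewer cells of a type and less RNA per cell cannot be told apart, nor can more cells and more RNA per cell.

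**Figure D1:**
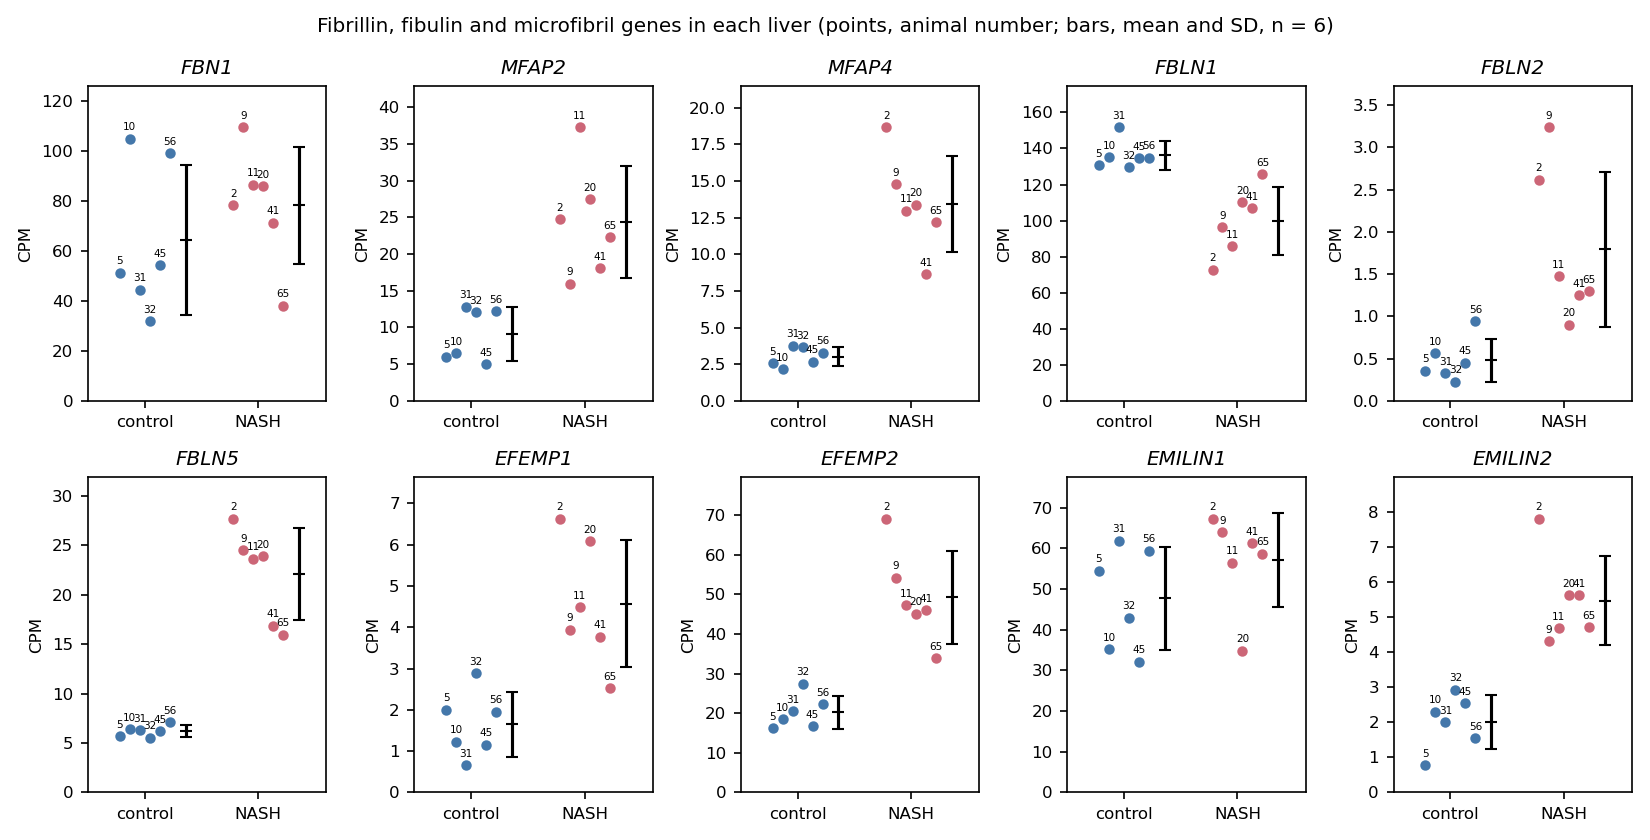
Level of each of the 10 genes in CPM (linear axis from 0) in the 6 controls (blue) and the 6 guinea pigs with NASH (red); numbers are animals and black bars the mean and SD. The groups lie apart in *MFAP2*, *MFAP4*, *FBLN5*, *EFEMP2* and *EMILIN2*, *FBLN1* is the gene whose NASH animals all lie below the controls (a direction not kept with library size alone, 0.018), and *FBN1* and *EMILIN1* overlap throughout.

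*FBN1* codes for fibrillin-1, the main structural protein of microfibrils. Its level was 31.99 to 104.9 CPM in controls, with a median of 52.9, and 38.1 to 109.6 CPM in NASH, with a median of 82.0. The groups overlapped almost entirely, because controls 10 (104.9 CPM) and 56 (99.0 CPM) were higher than all guinea pigs with NASH but animal 9 (109.6 CPM). The other 4 controls held 31.99 to 54.4 CPM, whereas 5 of the 6 guinea pigs with NASH held 71.4 CPM or more and animal 65 held 38.1 CPM. The mean was 64.4 ± 30.2 CPM (SD, n = 6) in controls and 78.3 ± 23.5 CPM (SD, n = 6) in NASH. The log2 fold change was 0.28 (SE 0.31, 95% confidence interval −0.38 to 0.95, edgeR adjusted p = 0.457). On the linear scale the interval runs from 0.769-fold to 1.93-fold, so these livers exclude neither a fall nor a rise within it. With library size alone the log2 fold change was 0.76 and passed the threshold (edgeR adjusted p = 0.0430), which is 0.29 above the median of all symbols in that fit.

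The controls' range of 3.28-fold in *FBN1* was wider than counting error allows, the lowest count of the gene in any animal being 697. Among the 6772 symbols that reached at least 20 CPM in a control, 17.4% ranged over more than 2-fold between controls and 7.40% over more than 3-fold. The part that locus assembly from the reads plays in such ranges was not tested.

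*MFAP2* and *MFAP4* code for small glycoproteins bound to microfibrils, and MFAP4 also binds elastin and collagen. *MFAP4* was 2.15 to 3.77 CPM in controls (median 2.99) and 8.62 to 18.7 CPM in NASH (median 13.2). The groups did not overlap, and the lowest guinea pig with NASH, animal 41, stood well above the highest control, animal 31. Mean *MFAP4* rose to 13.4 ± 3.29 CPM in NASH from 3.02 ± 0.654 CPM in controls (SD, 6 animals per group), giving a log2 fold change of 2.15 (SE 0.19, edgeR adjusted p = 1.60e-06), or 4.42-fold with a 95% confidence interval of 3.32 to 5.89. This was the highest log2 fold change of the 10 genes, and 95.6% of all symbols had a lower one.

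*MFAP2* was 5.02 to 12.9 CPM in controls (median 9.29) and 16.0 to 37.3 CPM in NASH (median 23.5). The controls fell into 5.02 to 6.51 CPM in animals 5, 10 and 45 and 12.1 to 12.9 CPM in animals 31, 32 and 56, and all 6 lay below the lowest guinea pig with NASH. Mean *MFAP2* rose to 24.3 ± 7.63 CPM in NASH from 9.11 ± 3.61 CPM in controls (SD, 6 animals per group), giving a log2 fold change of 1.41 (SE 0.28, edgeR adjusted p = 0.000923).

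The 5 fibulin genes code for glycoproteins with repeated calcium-binding EGF-like modules. The short ones are known from elastic fibre assembly. Fibulin-5 links elastin to the microfibril and to integrins, and fibulin-4 is needed to bring lysyl oxidase to tropoelastin. *FBLN5* was 5.55 to 7.14 CPM in controls (median 6.25) and 16.0 to 27.7 CPM in NASH (median 23.8). No other risen gene among the 10 was so even between controls, which differed by at most 1.28-fold, and the lowest guinea pig with NASH, animal 65, stood well above the highest control, animal 56. Mean *FBLN5* rose to 22.1 ± 4.65 CPM in NASH from 6.22 ± 0.563 CPM in controls (SD, 6 animals per group), giving a log2 fold change of 1.83 (SE 0.14, edgeR adjusted p = 5.05e-07), or 3.55-fold with a 95% confidence interval of 2.88 to 4.38.

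*EFEMP2* was 16.2 to 27.4 CPM in controls (median 19.5) and 33.8 to 69.1 CPM in NASH (median 46.6). The groups did not overlap, with control 32 the highest control and animal 65 the lowest with NASH. Mean *EFEMP2* rose to 49.3 ± 11.7 CPM in NASH from 20.3 ± 4.16 CPM in controls (SD, 6 animals per group), giving a log2 fold change of 1.28 (SE 0.17, edgeR adjusted p = 4.28e-05).

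*EFEMP1*, whose product fibulin-3 is a secreted protein of basement membranes and loose connective tissue, was 0.652 to 2.89 CPM in controls (median 1.59) and 2.52 to 6.63 CPM in NASH (median 4.21). The overlap came from 1 animal of each group, control 32 (2.89 CPM) and animal 65 with NASH (2.52 CPM). Mean *EFEMP1* rose to 4.57 ± 1.53 CPM in NASH from 1.65 ± 0.797 CPM in controls (SD, 6 animals per group), giving a log2 fold change of 1.48 (SE 0.33, edgeR adjusted p = 0.00216).

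*FBLN2*, coding for a long fibulin of basement membranes and vessel walls that marks portal fibroblasts in rodent liver, had the fewest reads of the 10 genes, with counts of 5 to 14 in controls and 29 to 111 in NASH. It was 0.229 to 0.942 CPM in controls (median 0.405) and 0.904 to 3.24 CPM in NASH (median 1.38). Control 56 (0.942 CPM) just exceeded animal 20 with NASH (0.904 CPM), and animals 2 and 9 with NASH (2.62 and 3.24 CPM) stood above the other 4 (0.904 to 1.47 CPM). Mean *FBLN2* rose to 1.80 ± 0.918 CPM in NASH from 0.479 ± 0.254 CPM in controls (SD, 6 animals per group), giving a log2 fold change of 1.93 (SE 0.40, edgeR adjusted p = 0.00127). Its 95% confidence interval, 2.09-fold to 6.94-fold, was the widest in ratio of the 10 genes.

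*FBLN1* codes for fibulin-1, a long fibulin that binds fibronectin, circulates in plasma and is part of elastic fibres and basement membranes. It was 129.5 to 151.8 CPM in controls (median 134.7) and 72.8 to 125.9 CPM in NASH (median 101.5). The highest guinea pig with NASH, animal 65, lay just under the lowest control, animal 32, so the groups did not overlap. Mean *FBLN1* fell to 99.6 ± 18.8 CPM in NASH from 136.1 ± 8.08 CPM in controls (SD, 6 animals per group), giving a log2 fold change of −0.45 (SE 0.11, edgeR adjusted p = 0.00476), or 0.732-fold with a 95% confidence interval of 0.617 to 0.868. With library size alone the log2 fold change was 0.018 (edgeR adjusted p = 0.890), which is 0.46 below the median of all symbols in that fit. The fall is thus one relative to the other genes, and the difference in the gene's share of all reads did not pass the threshold.

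Emilins are elastin-microfibril interface proteins with a globular C1q-like end. EMILIN1 lies between elastin and the microfibril and is known to hold back TGF-β maturation, and EMILIN2 is its paralogue. *EMILIN2* was 0.786 to 2.94 CPM in controls (median 2.15) and 4.32 to 7.82 CPM in NASH (median 5.18), without overlap. Control 5 was the lowest of all animals, and animal 2 with NASH stood above the other 5, which held 4.32 to 5.64 CPM. Mean *EMILIN2* rose to 5.47 ± 1.27 CPM in NASH from 2.02 ± 0.768 CPM in controls (SD, 6 animals per group), giving a log2 fold change of 1.41 (SE 0.25, edgeR adjusted p = 0.000450).

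*EMILIN1* was 32.1 to 61.9 CPM in controls (median 48.7) and 34.8 to 67.3 CPM in NASH (median 60.0). The groups overlapped, with controls 31 and 56 (61.9 and 59.4 CPM) inside the range of 5 of the guinea pigs with NASH (56.5 to 67.3 CPM) and control 5 (54.5 CPM) just under it. Animal 20 with NASH (34.8 CPM) lay among the low controls 10, 32 and 45 (32.1 to 43.0 CPM). The log2 fold change was 0.26 (SE 0.19, 95% confidence interval −0.15 to 0.68, edgeR adjusted p = 0.272), from 47.7 ± 12.7 to 57.1 ± 11.6 CPM (SD, n = 6 each). With library size alone it was 0.73 and passed the threshold (edgeR adjusted p = 0.00474), 0.25 above the median of all symbols in that fit.

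**Figure D2:**
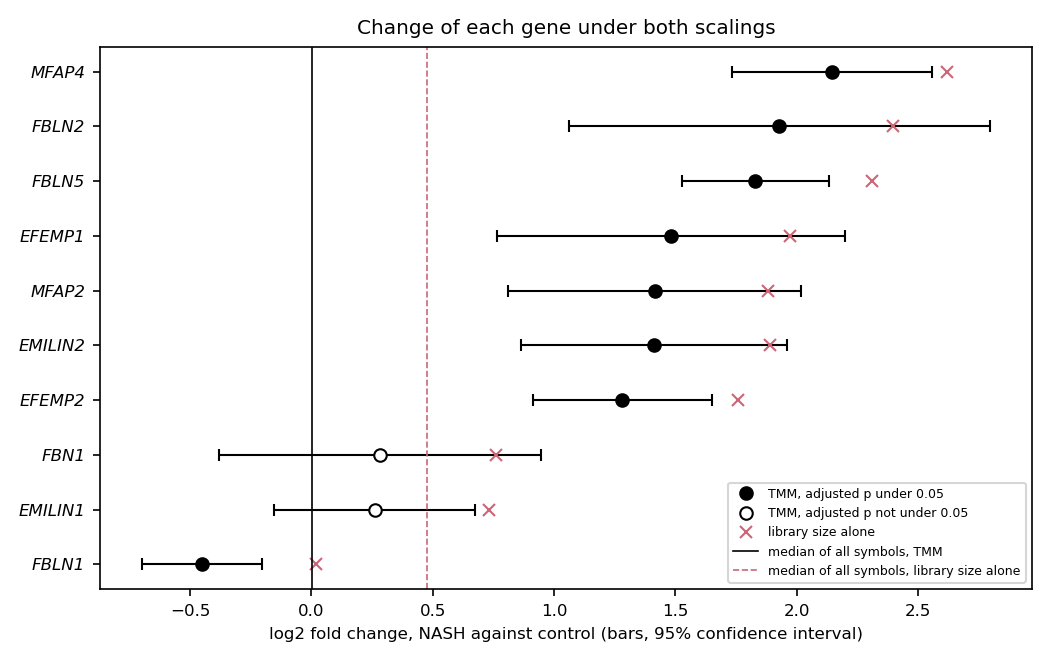
Log2 fold change of each gene, NASH against control, with TMM scaling (circles with 95% confidence intervals, filled where the edgeR adjusted p was under 0.05, n = 6 per group) and with library size alone (crosses); vertical lines are the medians of all 11896 symbols. With library size alone every gene and the median shift up by about the same amount, to 0.48 for the median, so that *FBLN1* moves from −0.45 to 0.018 and *FBN1* from 0.28 to 0.76.

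Among guinea pigs with NASH the 10 genes were not ordered alike, but 2 animals stood at the ends more often than the others. Animal 2 was the highest with NASH in 6 of the 10 genes (*MFAP4*, *FBLN5*, *EFEMP1*, *EFEMP2*, *EMILIN1* and *EMILIN2*) and the lowest in *FBLN1*. Animal 65 was the lowest with NASH in 4 genes (*FBN1*, *FBLN5*, *EFEMP1* and *EFEMP2*) and the highest in *FBLN1*. *MFAP2* was highest in animal 11, and *FBN1* and *FBLN2* in animal 9. Leaving out any of the 12 animals changed the call of none of the 10 genes.

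Ratios of the counts of 2 genes within an animal need no scaling factor, and 10 pairs of paralogues or of fibrillin-1 with its associated proteins were compared by a two-sided exact permutation test over every split of the animals into groups of 6. The smallest p-value this design allows is 0.00216. *FBLN1* fell relative to *FBLN5* by 2.26 on the log2 scale (exact permutation p = 0.00216, adjusted p = 0.00541 over the 10 pairs), from a log2 ratio of 4.43 ± 0.12 in controls to 2.17 ± 0.57 in NASH (SD, n = 6 each). *FBLN1* also fell relative to *FBLN2*, by 2.11 (exact permutation p = 0.00216, adjusted p = 0.00541). Neither pair overlapped between groups, so the fibulins changed unequally whichever scaling is used. The ratio of *FBLN2* to *FBLN5* differed by −0.15 (exact permutation p = 0.643, adjusted p = 0.643) and that of *EFEMP1* to *EFEMP2* by 0.21 (exact permutation p = 0.548, adjusted p = 0.608), with groups that overlapped. From the rlog values both passed, *FBLN2* to *FBLN5* at −0.65 (exact permutation, adjusted p = 0.00541) and *EFEMP1* to *EFEMP2* in the opposite direction at −0.28 (exact permutation, adjusted p = 0.0144).

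*FBN1* fell relative to *MFAP4* by 1.75 and relative to *FBLN5* by 1.44 on the log2 scale (exact permutation p = 0.00216, adjusted p = 0.00541 for each), again without overlap between groups. Relative to *MFAP2* its difference was −1.10 (exact permutation p = 0.0519, adjusted p = 0.0649) and relative to *EFEMP1* −1.13 (exact permutation p = 0.0476, adjusted p = 0.0649). Neither passed with all animals, and both passed without control 32 (exact permutation, adjusted p = 0.0216 at −1.38 and 0.0108 at −1.48). *EMILIN1* fell relative to *EMILIN2* by 1.17 (exact permutation p = 0.0130, adjusted p = 0.0260), a call that was lost without any 1 of animals 2, 11, 20, 41 or 65 with NASH (exact permutation, adjusted p up to 0.0866, difference −1.22 to −1.02). *MFAP2* fell relative to *MFAP4* by 0.65 (exact permutation p = 0.0260, adjusted p = 0.0433). That call held in 3 of 12 fits with 1 animal left out, those without control 5, control 45 or animal 11 with NASH, and over all 12 the difference was −0.79 to −0.51 (exact permutation, adjusted p 0.0216 to 0.0974). Both calls were lost from rlog values, at −0.35 for *EMILIN1* to *EMILIN2* (exact permutation, adjusted p = 0.119) and −0.20 for *MFAP2* to *MFAP4* (exact permutation, adjusted p = 0.231).

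**Figure D3:**
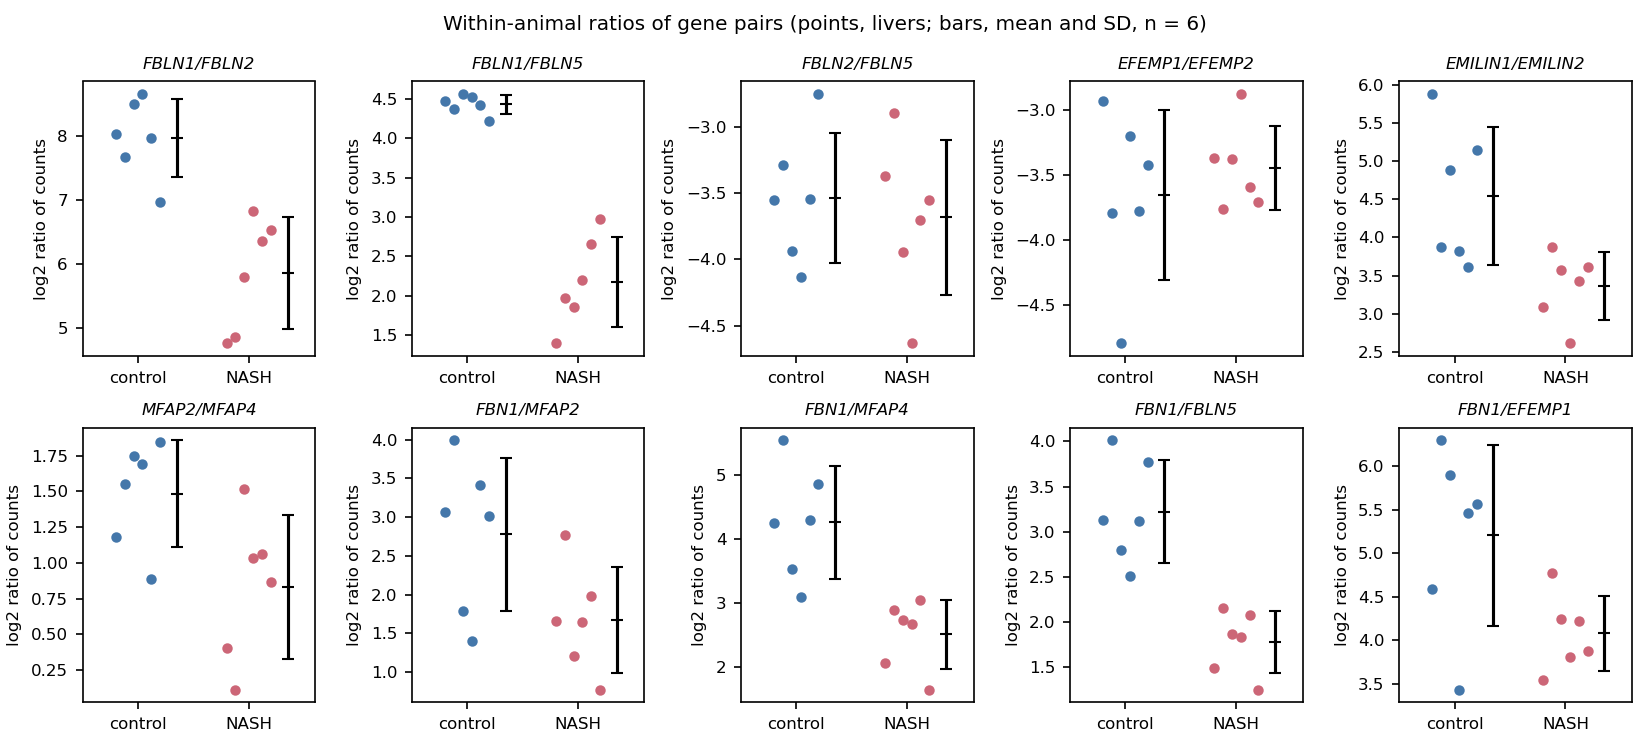
Log2 ratio of the counts of 2 genes within each liver (each panel has its own axis) in 6 controls (blue) and 6 guinea pigs with NASH (red), with the mean and SD as black bars. *FBLN1* over *FBLN5*, *FBLN1* over *FBLN2*, *FBN1* over *MFAP4* and *FBN1* over *FBLN5* separate the groups without overlap, whereas *FBLN2* over *FBLN5* and *EFEMP1* over *EFEMP2* overlap broadly.

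Genes known to work with microfibrils were read from the same fit. Of 57 genes listed by role, 41 were in the expression table, and 23 of these were higher, 4 were lower and 14 did not pass the threshold. Their median log2 fold change was 1.04. Under library size alone 34 were higher and 3 lower. Over all symbols 27.9% were higher and 26% lower with TMM factors, and most were higher with library size alone. Elastin was listed with other genes of the fibrillin, fibulin and emilin families or with an MFAP symbol. The 6 measured (*FBLN7*, *HMCN1*, *HMCN2*, *MFAP3*, *MFAP3L* and *MMRN1*) gave 0 DEGs by edgeR with TMM factors. All 6 passed as higher with library size alone, which moves every gene up. At an unadjusted p under 0.05 edgeR gave 2 of the 6, and the adjusted threshold was passed as higher by *HMCN2* and the multimerin *MMRN1* with DESeq2 and by *MMRN1* with limma-voom and with limma on rlog values. Elastin itself (*ELN*), *FBN2*, *FBN3*, *MFAP5*, *EMILIN3* and *MMRN2* were not among the symbols of the table and were not analysed here. The highest of the 6 was the hemicentin *HMCN2*, at 15.6 ± 4.81 CPM in controls and 40.9 ± 40.5 CPM in NASH (SD, n = 6 each). Its log2 fold change was 1.39 (SE 0.57, edgeR adjusted p = 0.0552), which passed the threshold without any 1 of animals 2, 9, 11 or 20 with NASH (lowest adjusted p = 0.0256). The lowest was *FBLN7*, at −0.13 (SE 0.10, edgeR adjusted p = 0.317) and 0.35 with library size alone (edgeR adjusted p = 0.00593), on a count row shared with another symbol.

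LTBPs bind fibrillin and some of them fasten latent TGF-β to it. LTBP2 competes with LTBP1 for its binding site on fibrillin-1. *LTBP2* rose to 38.6 ± 16.0 CPM in NASH from 0.705 ± 0.433 CPM in controls (SD, 6 animals per group), with a log2 fold change of 5.80 (SE 0.43, edgeR adjusted p = 4.53e-07). *LTBP3* rose from 4.06 ± 1.05 to 12.1 ± 2.51 CPM, by 1.56 (SE 0.19, edgeR adjusted p = 1.67e-05). *LTBP4*, whose product guides fibulin-5 onto microfibrils, was 16.5 ± 4.21 CPM in controls and 14.3 ± 2.65 CPM in NASH, with a log2 fold change of −0.21 (SE 0.17, edgeR adjusted p = 0.325) that was 0.26 with library size alone. *LTBP1* was not analysed here. All 3 TGF-β ligands rose. *TGFB3* had a log2 fold change of 2.74 (SE 0.22), *TGFB1* of 1.26 (SE 0.13) and *TGFB2* of 0.96 (SE 0.18), with edgeR adjusted p-values of 8.26e-07, 6.80e-06 and 0.000730.

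Lysyl oxidases cross-link elastin and collagen, and 3 of the 4 measured rose. *LOXL1*, which fibulin-5 is known to bind, rose to 10.3 ± 3.84 CPM in NASH from 1.55 ± 0.608 CPM in controls (SD, 6 animals per group), with a log2 fold change of 2.70 (SE 0.29, edgeR adjusted p = 8.10e-06). *LOXL2* rose by 1.28 (SE 0.12, edgeR adjusted p = 3.17e-06). *LOXL3* was the lowest, at 0.46 (SE 0.26, edgeR adjusted p = 0.152) and 0.93 with library size alone (edgeR adjusted p = 0.00718), and *LOX* was not analysed here. In each of the 3 risen genes every guinea pig with NASH lay above every control, as was so in 18.4% of all symbols.

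The ADAMTS and ADAMTS-like proteins bind fibrillin microfibrils and influence their assembly. Of 7 measured, 5 rose and 1 fell. *ADAMTSL3* had 3 counts or fewer in every control and 13 to 99 counts in NASH, at least 4.71-fold higher against the floor of 3 counts in the shallowest control. Its fitted change, the highest of the list, rests on these few control reads. *THSD4* (ADAMTSL6), the next, rose to 3.58 ± 0.579 CPM in NASH from 0.348 ± 0.244 CPM in controls (SD, 6 animals per group), with a log2 fold change of 3.35 (SE 0.38, edgeR adjusted p = 1.07e-05). The lowest was *ADAMTS17*, which fell to 0.518 ± 0.160 CPM in NASH from 1.61 ± 0.447 CPM in controls (SD, 6 animals per group), with a log2 fold change of −1.62 (SE 0.27, edgeR adjusted p = 0.000271).

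Integrins through which cells hold fibrillin, fibulin-5 and emilins, or release latent TGF-β, were higher in 5 of 9 genes (8 with library size alone), and 0 of the 9 passed as lower with either scaling. The highest by fitted change was *ITGB8*, whose product activates latent TGF-β, with no read in 4 of 6 controls, at most 5 counts in control 32 and 11 to 83 counts in NASH (edgeR adjusted p = 0.000649). The lowest was *ITGA8*, at −0.24 (SE 0.49, edgeR adjusted p = 0.700) and 0.23 with library size alone. *ITGAV*, named here after its values were seen, counted among the 5 by a narrow margin (edgeR adjusted p = 0.0416). It held 17.2 CPM in control 31 against 160.3 to 191.3 CPM in the other controls and 276.4 to 342.8 CPM in NASH, and its call was lost in 10 of 12 fits with 1 animal left out (edgeR adjusted p up to 0.0679), while without control 31 it was 9.29e-06.

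Of 5 other matrix proteins that bind microfibrils, 2 rose and 3 fell. One of the fallen, *BGN* (biglycan), went from a log2 fold change of −0.50 (edgeR adjusted p = 0.0116) to −0.030 with library size alone (edgeR adjusted p = 0.879). The highest was *HSPG2* (perlecan), with a log2 fold change of 1.11 (SE 0.13, edgeR adjusted p = 1.18e-05). *VTN* (vitronectin) and *FN1* (fibronectin), plasma proteins made in large amounts by hepatocytes, fell by 0.73 (SE 0.11, edgeR adjusted p = 0.000151) and 0.99 (SE 0.13, edgeR adjusted p = 3.38e-05), and *FN1* was the lowest of the list. Of 4 measured proteases that degrade elastin, 3 rose. The highest was the macrophage elastase *MMP12*, with no read in 5 of 6 controls, 19 counts in control 32 and 900 to 3388 counts in NASH. The lowest was *MMP14*, at 0.27 (SE 0.20, edgeR adjusted p = 0.283), on a shared count row. It passed with library size alone (0.75, edgeR adjusted p = 0.00582) and without control 10 (0.47, edgeR adjusted p = 0.0274).

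**Figure D4:**
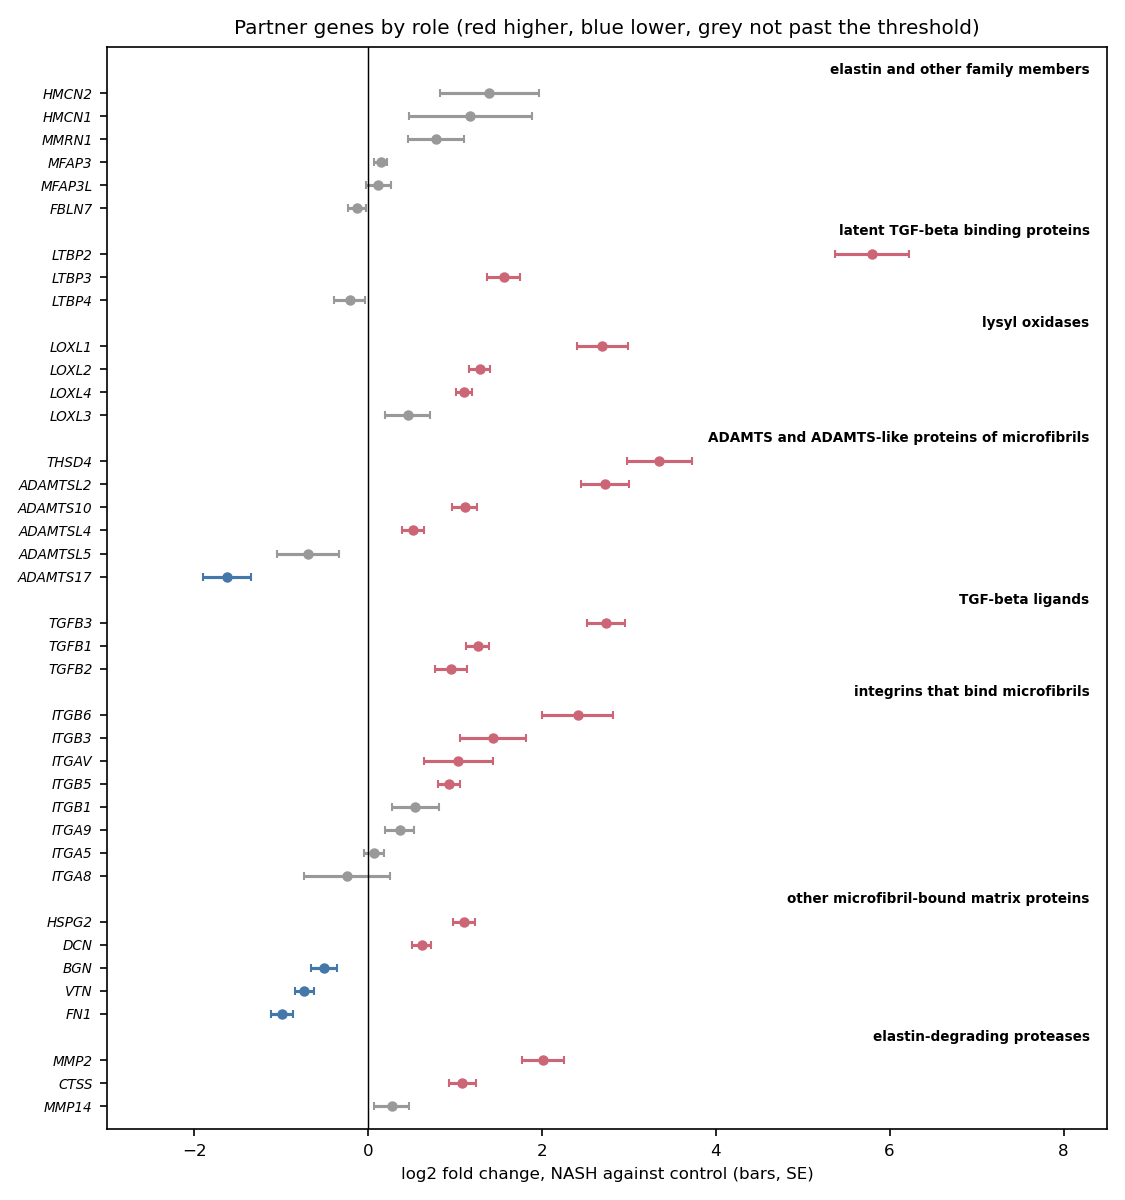
Log2 fold change (circles) with SE (bars) of the measured partner genes, grouped by role, n = 6 per group; red marks genes higher in NASH, blue lower and grey those that did not pass the edgeR threshold. *MMP12*, *ADAMTSL3* and *ITGB8* are left out because at least 3 of their 6 controls have no read. *LTBP2* lies farthest to the right at 5.80, all 3 TGF-β ligands lie right of 0, and *FN1*, *VTN* and *BGN* lie left of it (*BGN* at −0.030 with library size alone).

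Markers of liver cell types moved between the groups as well, and their part in the results for the 10 genes was not tested. Counts of markers stand beside 27.9% of all symbols higher and 26% lower with TMM factors, and most symbols higher with library size alone. Of 9 markers of myofibroblasts and portal fibroblasts, 6 were higher and 1 lower, and their summed level was 230.3 to 312.1 CPM in controls and 550.5 to 1302 CPM in NASH. *COL1A1* was highest (log2 fold change 4.21, SE 0.39, edgeR adjusted p = 2.76e-06) and *POSTN* lowest (−0.80, SE 0.20, edgeR adjusted p = 0.00443). Of 10 stellate cell and pericyte markers, 3 were higher and 3 lower, with sums of 396.4 to 486.9 CPM and 713.9 to 1167 CPM, led by *RGS5* (2.62, SE 0.17, edgeR adjusted p = 1.69e-07), with *VIPR1* lowest (−0.58, SE 0.10, edgeR adjusted p = 0.000242). The list's median log2 fold change was −0.19, and without *RGS5* the sums overlapped at 308.0 to 381.9 CPM and 333.3 to 416.8 CPM. Of 5 smooth muscle markers 1 was higher, *SYNPO2* (0.55, SE 0.15, edgeR adjusted p = 0.00729), the lowest was *ACTG2* (−1.59, SE 0.94, edgeR adjusted p = 0.174), and the sums overlapped at 66.1 to 106.4 CPM and 66.8 to 95.8 CPM. The 4 lower calls of the fibroblast and stellate lists were all lost with library size alone (*POSTN*, *LRAT*, *COLEC11* and *VIPR1*, log2 fold changes −0.33 to −0.050, edgeR adjusted p 0.162 to 0.702). That scaling left 4 stellate and 2 smooth muscle markers higher.

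Of 8 hepatocyte markers 7 were lower, with sums of 102640 to 124177 CPM in controls and 43815 to 66779 CPM in NASH. *TTR* was lowest (−2.20, SE 0.17, edgeR adjusted p = 6.29e-07), and *ASGR1*, the highest, was at −0.18 (SE 0.07, edgeR adjusted p = 0.0453) but at 0.29 with library size alone, where it passed as higher (edgeR adjusted p = 0.00266). Its call of lower was lost in 8 of 12 fits with 1 animal left out. Under library size alone 3 of the 8 were lower and 1 higher, since *APOB*, *SERPINA1* and *FGB* also lost their calls (edgeR adjusted p 0.127 to 0.759). Of 6 cholangiocyte markers 5 were higher, from sums of 293.7 to 357.9 CPM to 491.6 to 936.6 CPM, with *EPCAM* highest (3.22, SE 0.21, edgeR adjusted p = 1.84e-07) and *ANXA4* lowest (0.14, SE 0.18, edgeR adjusted p = 0.531, and 0.63 with library size alone, adjusted p = 0.00920). The endothelial sums overlapped at 627.5 to 845.2 CPM and 682.5 to 948.1 CPM, with 3 of 9 markers higher and 2 lower, *VWF* highest (1.46, SE 0.16, edgeR adjusted p = 7.85e-06) and *LYVE1* lowest (−0.81, SE 0.14, edgeR adjusted p = 0.000314). These counts were 5 and 1 with library size alone.

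The macrophage sums overlapped at 402.0 to 732.3 CPM and 631.2 to 833.9 CPM. Of 9 macrophage markers 2 were higher (6 with library size alone) and 1 lower, beside 27.9% and 26% of all symbols with TMM factors. *TREM2*, the highest, had no read in 5 controls, 9 counts in control 32 and 289 to 567 counts in NASH, and *MARCO*, the lowest, fell by 1.27 (SE 0.31, edgeR adjusted p = 0.00364). Of 7 T cell markers 1 was higher (3 with library size alone), *CD8A* (1.29, SE 0.26, edgeR adjusted p = 0.00111), and 1 lower, *CD3E* (−1.06, SE 0.24, edgeR adjusted p = 0.00242), with sums of 60.8 to 116.1 CPM and 37.1 to 65.4 CPM. Without *CD3E* these were 9.65 to 16.4 CPM and 12.9 to 19.2 CPM. All 4 erythroid markers measured were higher, from sums of 57.4 to 172.2 CPM to 427.2 to 4531 CPM, with *SLC4A1* highest (6.38, SE 1.07, edgeR adjusted p = 0.000293) and *KLF1* lowest (2.33, SE 0.71, edgeR adjusted p = 0.0145). Mesothelial cells, which cover the liver, were not assessed, since 0 of their 6 listed markers were in the table.

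For each of the 10 genes, the symbol on another count row with the most similar level over the 12 animals, after each group's mean log2 CPM had been taken out, was looked up as a description. Pearson's r of these pairs was between 0.89 and 0.97. Each r is the highest of all symbols in a single set of 12 livers, and both symbols of a pair come from the same libraries, so r was not tested. The nearest symbols were *EVI2A* for *FBN1*, *SPAG6* for *MFAP2*, *TPM2* for *MFAP4*, *SATB1* for *FBLN1*, *INSYN2A* for *FBLN2*, *ZNF317* for *FBLN5*, *MTMR6* for *EFEMP1*, *CEND1* for *EFEMP2*, *ATP6V1E1.1* for *EMILIN1* and *TRIM26* for *EMILIN2*. None of the 10 genes was the nearest of another.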

How the data were processed

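The authors deposited raw counts per assembled locus or Ensembl guinea pig gene, obtained, per the paper's methods and the submitters' processing notes, with Trimmomatic 0.38.0, HISAT2 2.1.0 (multimapped reads ignored) and StringTie 1.3.6 from stranded, single-read mRNA libraries. They also deposited log2 values (rlog, DESeq2) per human orthologue symbol, after dropping genes under a total of 200 counts. Symbols were linked to count rows, which carry none, by redoing that transformation and matching its values. All 11896 symbols were recovered within 1e-05, from 11031 of 39061 rows, and 1515 of them share a row. Rows with a symbol held 78.2% to 79.9% of the counts. Multimapped reads could affect near-identical genes, and loci joined or split by assembly cannot be seen in the tables.

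Counts were tested in R 4.3.3 with edgeR 4.0.16 (TMM factors, whole-table library sizes, glmQLFit with robust estimation, glmQLFTest) and Benjamini-Hochberg adjustment over all 11896 symbols. The SE is the absolute log2 fold change over the square root of F, and confidence intervals are at 95%. Ratios used a prior count of 2. The procedures were tested on simulated data. Alternatives used DESeq2 1.42.0, limma 3.58.1 and others given in the closing section. The text names the 10 genes, preset partner genes, the highest and lowest gene of each list and the nearest symbol of each gene. The genes and lists were chosen with earlier results of these data known. All 10 genes were found in a RefSeq table of guinea pig assembly mCavPor4.1, which is not the build of the files, so no coordinates are given. The labels name no batch. Pairs of animals of a group differed by at least 41.9 times counting variance per row, so no 2 libraries of a group were the same.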

Additional observations from a re-analysis of the deposited data

Results flagged for a closer look

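In 20 groups of 6 animals (10 genes, each in controls and in NASH), a single animal far from the rest is flagged by chance in about 1 in 20, and 2 were flagged. *FBLN1* in control 31 was 151.8 CPM, against 135.2 CPM in the next animal and 129.5 CPM in the lowest control, so that this gap made up 0.743 of the controls' range. *EMILIN1* in animal 20 with NASH was 34.8 CPM, against 56.5 CPM in the next, a gap of 0.667 of the range. Without either animal the calls of both genes stayed as they were.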

How the results depend on the processing

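The 10 genes were refitted under 11 other settings and with each animal left out. With library size alone, *FBN1* (0.76, adjusted p = 0.0430) and *EMILIN1* (0.73, adjusted p = 0.00474) passed, *FBLN1* turned to 0.018 (adjusted p = 0.890), 0 of the 10 were lower, and 7603 symbols were higher and 911 lower, since that setting moves the median of all symbols to 0.48. When the null was a change of at most 1 in absolute log2, 2 of the 10 (*MFAP4* and *FBLN5*) were higher and 0 lower, with *MFAP2* (1.41, adjusted p = 0.196), *FBLN1* (−0.45, adjusted p = 1), *FBLN2* (1.93, adjusted p = 0.0504), *EFEMP1* (1.48, adjusted p = 0.209), *EFEMP2* (1.28, adjusted p = 0.150) and *EMILIN2* (1.41, adjusted p = 0.158) not passing, 853 symbols higher and 247 lower, and 11 partner genes higher and 1 lower. Testing every row with at least 1 count gave 5985 higher and 4828 lower rows, and filterByExpr 5089 and 4734, because more rows are tested. The calls of the 10 genes kept their direction and side of the threshold under the other 9 settings, among them RLE and upper-quartile factors, DESeq2, limma-voom, limma on rlog values and a threshold of 0.01.

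With each animal left out, no call of the 10 genes changed, and log2 fold changes were 0.14 to 0.48 for *FBN1*, −0.53 to −0.38 for *FBLN1* and 0.17 to 0.37 for *EMILIN1*, and at their lowest 1.16 (*EFEMP2*) among the risen genes. Symbols higher numbered 3123 to 3290 and partner genes higher 22 to 24.

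From rlog values, which shrink low counts, *EFEMP1*/*EFEMP2* turned to −0.28 (adjusted p = 0.0144), *FBLN2*/*FBLN5* passed at −0.65 (adjusted p = 0.00541), and *EMILIN1*/*EMILIN2* (−0.35, adjusted p = 0.119) and *MFAP2*/*MFAP4* (−0.20, adjusted p = 0.231) did not. With a prior count of 0.5, *FBLN2*/*FBLN5* was 0.035. These ratios come from exact permutation tests. With each animal left out, *FBLN2*/*FBLN5* ran from −0.30 to 0.042, *EFEMP1*/*EFEMP2* from −0.023 to 0.35, *EMILIN1*/*EMILIN2* from −1.36 to −0.90, *MFAP2*/*MFAP4* from −0.79 to −0.51, *FBN1*/*MFAP2* from −1.38 to −0.86 and *FBN1*/*EFEMP1* from −1.48 to −0.91.

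List medians near 0 changed sign. The stellate cell median (−0.19) was 0.28 with library size alone. The smooth muscle median (−0.05) was 0.42 with library size alone, 0.024 with upper-quartile factors, 0.040 with every row, 0.0082 with filterByExpr and −0.20 to 0.021 with each animal left out. The T cell median (−0.08) was 0.38 with library size alone, 0.0021 with every row and −0.21 to 0.032 with each animal left out. Without a change of sign, list medians also moved with library size alone (14 lists), rlog values (10 lists) and limma-voom (2 lists), and the erythroid median (4.14) to 3.60 without animal 41 and 3.84 without animal 65 with NASH. No paired analysis was possible because the groups share no animal number. Low counts limit *FBLN2* most. The cause of the other changes was not tested.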
